A study of Homo sapiens with 25 samples.

Results

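The genes described here are 10 textbook targets of the tumour suppressor p53: MDM2, CDKN1A, BBC3, TNFRSF10B, PLK3, BAX, GDF15, SESN1, TP53I3 and FAS. They are 10 of the 19974 protein-coding genes of the RefSeq table, and were chosen by an earlier count of FOXD2 tag sites in these same lists, in which p53 targets stood out. Every chromatin immunoprecipitation (ChIP-seq) peak overlapping the gene span, or the 20 kb on either side of it, was counted for its gene. These windows took 1112 of the 1133018 peaks in the 18 lists. All cells were HCT116, an established human colorectal carcinoma line. Control cells carried the empty lentiviral pSin vector and FOXD2 cells the same vector with full-length FOXD2, a forkhead transcription factor. Both were stable lines kept under puromycin. H3K4me1, H3K27ac and MLL4 each had 2 control and 2 FOXD2 lists, and H3K4me3 had 1 of each. FOXD2 carrying 3xFLAG and 6xHis tags came from a pcDNA3.1 plasmid and was precipitated with either tag antibody, 2 lists each. Tag libraries from untagged cells, and RNA from any of these cells, were not analysed here.

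p53 is a transcription factor that is stabilised by DNA damage and other stress and binds paired decamers, called half-sites, near its targets. MDM2, one of those targets, marks p53 for degradation and so closes a feedback loop. Others stop the cell cycle (CDKN1A), limit growth signalling (SESN1) or drive cell death, through receptors at the cell surface (TNFRSF10B, FAS) or at mitochondria (BBC3, BAX). HCT116 cells retain wild-type p53. H3K4me3 marks active promoters, H3K4me1 marks enhancers and promoter flanks, H3K27ac marks active ones of both, and MLL4 (KMT2D) is an enzyme that places H3K4me1.

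Promoter sequences from the RefSeq table (GRCh38.p14) were available for 16 annotated start sites of 9 of the genes, and none was used for TNFRSF10B. The 250 bases before each start were searched on both strands for the p53 half-site, for a pair of adjacent half-sites with at most 3 mismatches in 20 bases, and for the forkhead words TGTTTAC and TGTTTGC. Of 22010 promoters of protein-coding genes, 5.29% held a half-site without mismatch, 4.05% a pair and 5.11% a forkhead word. A pair lay before starts of MDM2, SESN1 and FAS, and a forkhead word before that of GDF15. The sequences shown are those with a match, in capitals, and the upstream MDM2 promoter, which had none. Each reads 5′ to 3′ and ends at the base before the start site. They are MDM2 upstream (chr12:68807922-68808171, plus strand), MDM2 internal (chr12:68808767-68809016, plus strand), FAS internal (chr10:88991181-88991430, plus strand) and GDF15 (chr19:18385908-18386157, plus strand). For SESN1 (minus strand) the pair alone is given, which lay 49 to 30 bases before the start at position 109008988 of chromosome 6.
MDM2 upstream: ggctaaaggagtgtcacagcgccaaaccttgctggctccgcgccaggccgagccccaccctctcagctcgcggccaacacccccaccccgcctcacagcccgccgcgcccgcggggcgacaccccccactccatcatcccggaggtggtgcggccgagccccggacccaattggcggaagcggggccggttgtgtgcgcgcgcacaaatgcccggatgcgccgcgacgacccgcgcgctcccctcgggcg
MDM2 internal: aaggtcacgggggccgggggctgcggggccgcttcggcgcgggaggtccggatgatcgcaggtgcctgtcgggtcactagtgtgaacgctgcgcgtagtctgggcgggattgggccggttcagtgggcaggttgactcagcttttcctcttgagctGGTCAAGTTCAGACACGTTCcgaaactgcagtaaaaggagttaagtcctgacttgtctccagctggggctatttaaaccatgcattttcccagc
FAS internal: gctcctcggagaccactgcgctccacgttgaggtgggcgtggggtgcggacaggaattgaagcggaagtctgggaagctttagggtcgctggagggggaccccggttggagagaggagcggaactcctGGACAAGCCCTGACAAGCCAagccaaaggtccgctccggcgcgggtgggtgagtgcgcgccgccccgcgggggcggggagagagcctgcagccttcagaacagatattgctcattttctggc
GDF15: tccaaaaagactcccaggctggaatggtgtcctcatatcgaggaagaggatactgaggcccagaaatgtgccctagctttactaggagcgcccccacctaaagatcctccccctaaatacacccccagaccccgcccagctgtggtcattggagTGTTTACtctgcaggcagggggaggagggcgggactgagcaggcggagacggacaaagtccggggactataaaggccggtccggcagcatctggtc
SESN1 pair: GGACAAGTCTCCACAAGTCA
The pairs before MDM2 and FAS had 2 mismatches each and that before SESN1 had 3. A match is a description of the letters and does not show binding.

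The marks of active promoters were present at these genes in both kinds of cell. H3K4me3 lay over all 16 annotated starts of the 9 genes in both lists, against 56.9% of 22012 starts of protein-coding genes. At the starts of MDM2 the H3K4me3 peak was 2265 bp wide in control and 2201 bp wide in FOXD2 cells. H3K27ac lay over 11 of the 16 starts in all 4 of its lists, against 32.3% of all starts. The other 5 starts, at BAX, GDF15, FAS, SESN1 and the first base of the MDM2 upstream promoter, lacked an H3K27ac peak in at least 1 list. H3K4me1, which usually dips at an active start, lay over 1 of the 16 in all 4 lists, that of BBC3. TNFRSF10B held H3K4me3 over 2.01 kb of its span in control and 2.199 kb in FOXD2 cells.

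Tagged FOXD2 was mapped to these genes very unevenly. A tag site was a merged region with a peak in all 4 tag lists. The 10 windows held 22 tag sites at 6 genes, of which 13 were at MDM2 and 4 at TNFRSF10B, then 2 at BBC3 and 1 each at CDKN1A, PLK3 and SESN1. BAX, GDF15, TP53I3 and FAS had none. Over all protein-coding genes, 20.6% of windows held a tag site and 1.87% held 4 or more. Since tag sites led to the choice of these genes, the difference from that share is no evidence about p53 targets. When peaks under a −log10 q (the caller's false discovery estimate) of 5 were dropped, 14 sites at 3 genes were left, 10 at MDM2, 3 at TNFRSF10B and 1 at PLK3. When the peaks of every list had to cover 50% of a region, 9 sites at 3 genes were left, 6 of them at MDM2. With a list left out, a site needed a peak in the remaining lists alone, a looser rule that can add sites. Without 6xHis replicate 2, CDKN1A and SESN1 had 2 sites each and BBC3 had 1. SESN1 also had 2 without 6xHis replicate 1 or without FLAG replicate 2.

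**Figure D1:**
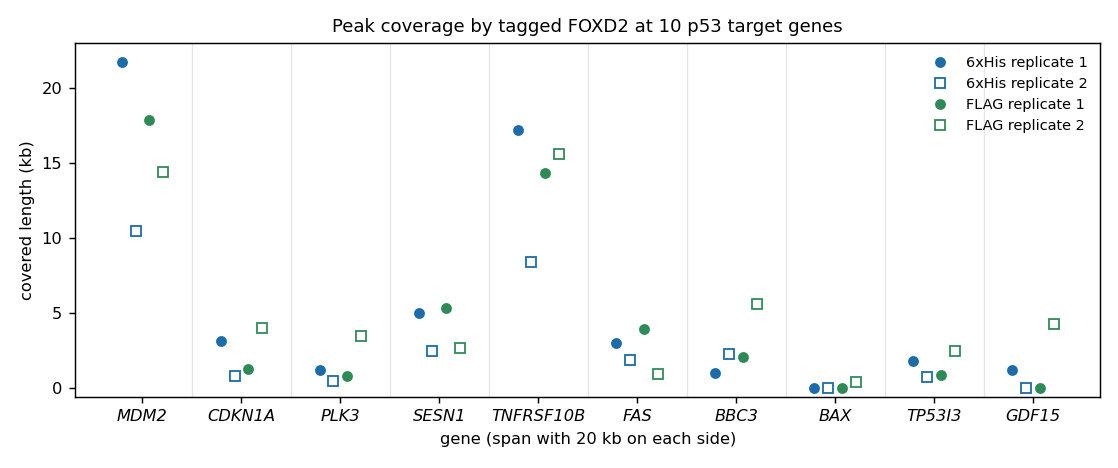
Length covered by peaks of tagged FOXD2 (kb, y axis) in the window of each of the 10 genes (x axis), with 1 point for each of the 4 tag lists. The points of MDM2 (10.5 to 21.7 kb) and TNFRSF10B (8.41 to 17.2 kb) lie above those of all 8 other genes, which stay at or under 5.60 kb.

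MDM2 stood at the top of the 10. Peaks covered 21.7 and 10.5 kb of its 82.5 kb window in 6xHis replicates 1 and 2, and 17.8 and 14.4 kb in FLAG replicates 1 and 2. These were 28, 21, 24 and 18 peaks. All 4 lists were high here, and the lowest, 6xHis replicate 2, is also the shortest of the 4 lists. Of the 19974 windows, 4 held more tag sites than that of MDM2, those of VMP1, HNRNPC, GBF1 and SPAG9, and 3 others held the same number. MDM2 spans 42.5 kb, against 60.3 to 159 kb for those 4 genes. The sites formed a row of 30.8 kb that began at the promoter and ran through the first part of the gene, as the map of peaks around MDM2 shows, and none lay wholly outside the gene. The widest (chr12:68806924-68809435, 2512 bp) held all 4 annotated starts. Its fold enrichments over the peak caller's background, as the authors deposited them, were 6.04 and 6.50 in the 6xHis lists and 4.75 and 5.43 in the FLAG lists. The internal promoter of MDM2 is known as its p53-responsive one. At this promoter, shown above with its p53 pair, all 4 tag lists had a peak over both starts. At the upstream promoter, 1 of the 4 lists (FLAG replicate 2) did. The others had a peak close by, ending at -0.072 kb (6xHis replicate 1), -0.199 kb (6xHis replicate 2) and -0.385 kb (FLAG replicate 1) from the first start. All 250 bases before that start lay in the tag site, so the 2 promoters are not told apart by it. Of all 22012 starts, 111 (0.504%) had a peak of all 4 tag lists over them.

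**Figure D2:**
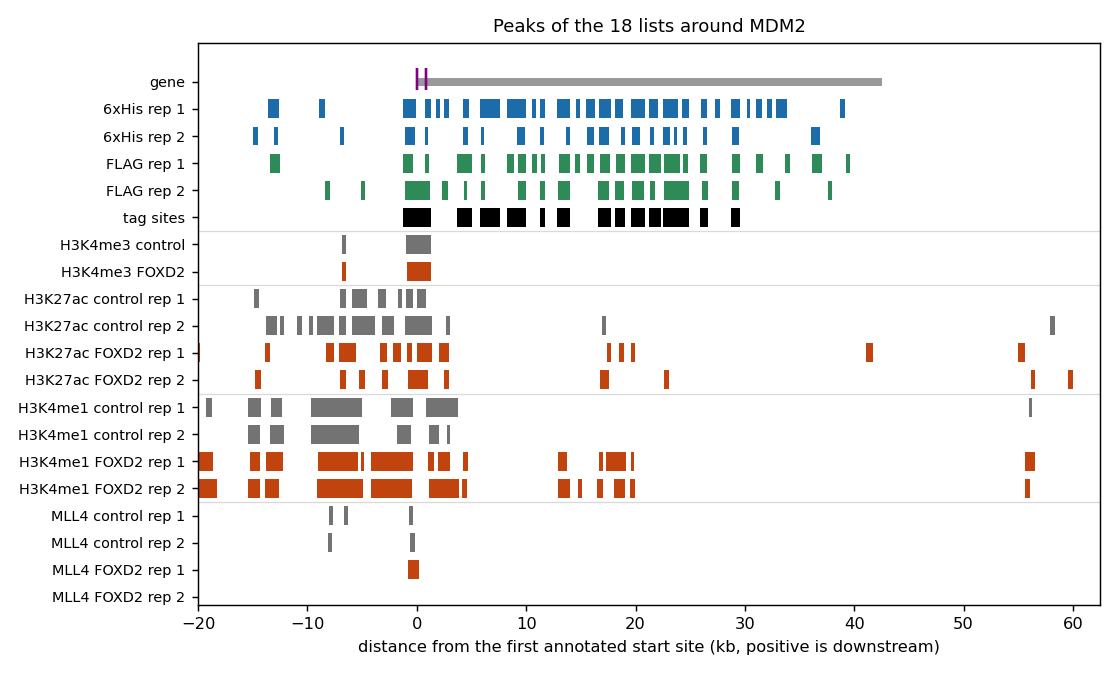
Peaks of each of the 18 lists (rows, as bars) around MDM2, against the distance from its first annotated start in kb. The top bar is the gene span with its starts in purple, and black bars are the 13 tag sites. H3K4me3 sits at the starts, while the tag sites run on through the gene, and H3K4me1 bars from about 13 to 20 kb are present in the 2 FOXD2 lists and absent from the 2 control lists.

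The other 12 MDM2 sites lay inside the gene. They carried no H3K4me3 and no MLL4 peak in any list, and 8 of them carried no H3K27ac either. H3K4me1 in the same stretch was the mark that differed most between the groups at MDM2. Within the gene span, H3K4me1 covered 2.94 and 1.24 kb in control and 5.28 and 6.85 kb in FOXD2 replicates 1 and 2. Over the whole window it covered 12.7 and 9.42 kb in control and 17.8 and 19.4 kb in FOXD2 cells. The groups did not overlap, and the mean difference was 7.54 kb (11.1 ± 2.3 against 18.6 ± 1.2 kb, SD, n = 2). Of the 13 H3K4me1 regions in the window, 5 had a peak in the 2 FOXD2 lists and in no control list, and none the other way round. All 5 overlapped a tag site. How common such regions are over the genome was not counted, and both FOXD2 lists of H3K4me1 are longer than both control lists. The widest of the 5 (chr12:68825506-68827259) overlapped 2 sites and had deposited fold enrichments of 9.36 and 9.99. All 5 lay within the 30.8 kb row of tag sites, of which the sites themselves take up 17.5 kb. At that density an overlap was likely beforehand, so no link between the mark and the sites is read from it. The 13 tag sites together span 17.5 kb, of which H3K4me1 covered 1.41 and 0.889 kb in control and 4.27 and 4.47 kb in FOXD2 cells. With the H3K4me1 lists shortened to equal length, 2 of those regions were left, and the difference over the window was 6.17 kb. A stricter peak threshold also left 2. With a merging gap of 500 bp the number was 2 as well, but there neighbouring regions of the 5 had joined into 1. The one nearest the starts had joined a region that a control list held.

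H3K27ac at MDM2 covered 5.10 and 11.2 kb of the window in control and 9.73 and 6.64 kb in FOXD2 lists, so both FOXD2 values lay between the control values. Within the gene span it covered 0.888 and 2.14 kb in control and 4.33 and 2.82 kb in FOXD2 cells. Within the tag sites it covered 1.58 and 2.69 kb against 3.00 and 3.16 kb. In both of these the FOXD2 values were the higher ones and the groups did not overlap. MLL4 covered 1.01 and 0.833 kb in control, 0.966 kb in FOXD2 replicate 1 and nothing in FOXD2 replicate 2, a list of 4676 peaks against 13571 to 22493 in the other 3. An MLL4 region centred 7.89 kb upstream had a peak in each control list and in no FOXD2 list. The genes most like MDM2 in covered length over the 18 lists, by Euclidean distance of log2(bp + 100), were the splicing factor TRA2B (2.28), the RNA-binding protein RALY (2.31) and the fatty acid elongase ELOVL5 (2.38), with 4, 3 and 4 tag sites.

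TNFRSF10B, the death receptor DR5, was the other gene with dense tag peaks. These covered 17.2 and 8.41 kb in the 6xHis and 14.3 and 15.6 kb in the FLAG lists, again with 6xHis replicate 2 lowest. Without that list, when a site needed a peak in the remaining lists alone, TNFRSF10B had 7 tag sites in place of 4. By the same looser rule it had 6 without FLAG replicate 1, 5 without FLAG replicate 2 and 4 without 6xHis replicate 1. Its 4 sites, 1442 to 4751 bp wide, lay inside the gene over a stretch of 17.4 kb. The highest deposited fold in each list was between 6.51 and 8.08. No H3K4me3 or MLL4 peak touched them, and 2 of the 4 had no H3K4me1 or H3K27ac peak either. The third site (chr8:23041080-23044046) lay on an element that held H3K4me1 and H3K27ac in all 4 lists of each. The merged H3K4me1 region there (chr8:23042135-23045762) runs beyond the tag site and has the bounds of the FOXD2 replicate 2 peak. Over it the H3K4me1 peaks covered 835 and 499 bp in control and 2761 and 3628 bp in FOXD2 cells. Within the 4 tag sites together, H3K4me1 covered 0.835 and 0.499 kb in control and 1.85 and 2.84 kb in FOXD2 cells. Over the merged H3K27ac region (chr8:23041846-23043403), H3K27ac covered 801 and 597 bp in control and 605 and 1492 bp in FOXD2 cells, so its groups overlapped.

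Over the whole TNFRSF10B window, H3K4me1 covered 17.2 and 13.3 kb in control and 22.3 and 24.5 kb in FOXD2 cells (15.2 ± 2.8 against 23.4 ± 1.6 kb, SD, n = 2). The groups did not overlap. Of its 11 H3K4me1 regions, 8 were held by all 4 lists and 1, beyond the gene, by the FOXD2 lists alone. Within the gene span, H3K4me1 covered 5.74 and 5.24 kb in control and 9.85 and 11.6 kb in FOXD2 cells. H3K27ac covered 17.9 and 12.0 kb in control and 16.1 and 20.8 kb in FOXD2 cells, with overlapping groups. MLL4 covered 0.613 and 0.801 kb in control against 0.357 kb and nothing in FOXD2 cells, a mean difference of -0.528 kb that was -0.35 kb without FOXD2 replicate 2. At equal list length it was -0.306 kb and the groups no longer stood apart. No MLL4 list covered any of the gene span itself.

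**Figure D3:**
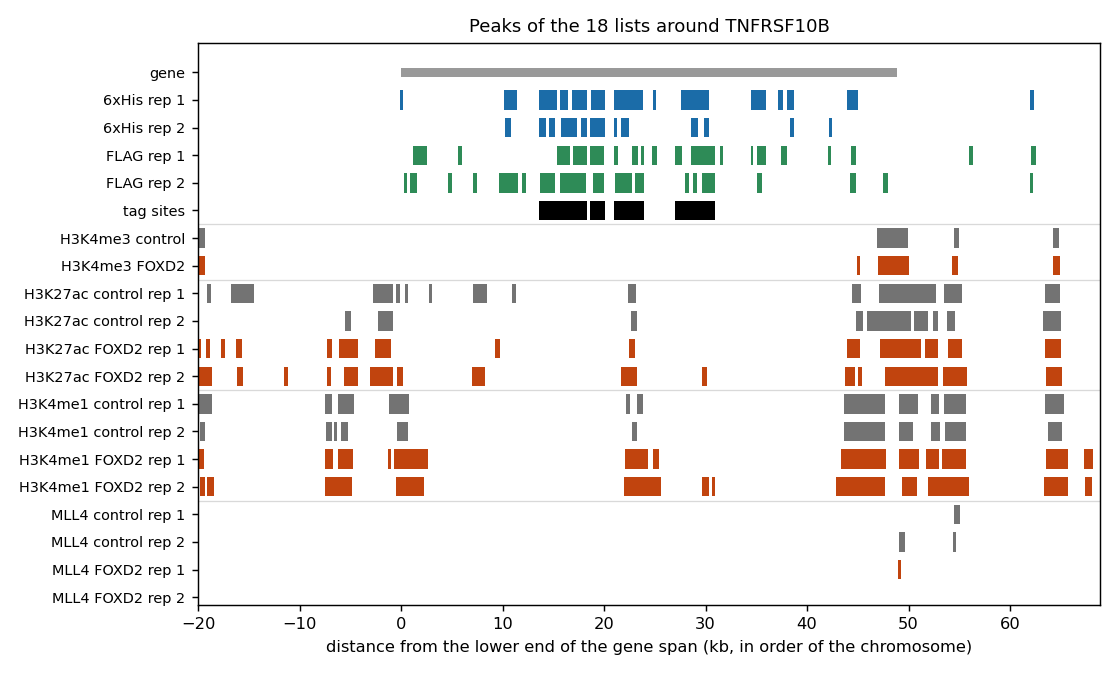
Peaks of each of the 18 lists (rows, as bars) around TNFRSF10B, against the distance in kb from the lower end of its span, in chromosome order. The 4 tag sites (black) lie in the middle of the gene, away from the H3K4me3 at its upper end, and the H3K4me1 bars near 22 to 26 kb are longer in the FOXD2 lists than in the control lists.

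The arrest genes held little tagged FOXD2. CDKN1A, the cyclin-dependent kinase inhibitor p21, had tag peaks over 3.12 and 0.801 kb in the 6xHis and 1.22 and 3.95 kb in the FLAG lists. Its 1 site (chr6:36687667-36688972) began 0.335 kb beyond the gene and carried no histone mark or MLL4 in any list. No tag list had a peak within 2 kb of its start. H3K4me1 at CDKN1A took 17.4 and 15.1 kb in control and 18.7 and 19.3 kb in FOXD2 cells. These groups did not overlap, but within the gene span alone the mean difference was -0.227 kb, and in number of peaks it was -0.5. Over the window it was 2.79 kb, and 1.65 kb without control replicate 2. PLK3, a polo-like kinase of the stress response, had a site 3.26 kb before the gene (chr1:44796550-44797113) that held H3K4me1, H3K27ac and MLL4 in all 4 lists of each. H3K4me3 lay there in the control list and not in the FOXD2 list. H3K4me1 at PLK3 covered 26.9 and 23.2 kb in control and 22.4 and 23.2 kb in FOXD2 cells, which overlap.

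Around PLK3, MLL4 covered more than at any other of the 10 genes, with 3.79 and 3.58 kb in control and 3.404 and 1.63 kb in FOXD2 cells. Both FOXD2 values lay below both control values. The mean difference of -1.17 kb was -0.278 kb without FOXD2 replicate 2 and -2.05 kb without FOXD2 replicate 1. A region of 1249 bp, centred 6.29 kb before the start, had MLL4 peaks in each control list and in no FOXD2 list. Within the gene span alone the mean difference was the other way, at 0.597 kb, with all of it in FOXD2 replicate 1. The PLK3 window also takes in other coding genes, so its peaks need not belong to PLK3.

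SESN1 had the largest H3K4me1 difference of the 10 genes in kb over these windows. With 50 kb on each side TNFRSF10B had a larger one, 13.8 against 12.8 kb. SESN1 encodes sestrin 1, a stress protein that restrains mTORC1. H3K4me1 covered 5.62 and 3.90 kb in control and 12.8 and 16.2 kb in FOXD2 cells (4.76 ± 1.2 against 14.5 ± 2.4 kb, SD, n = 2), a ratio of 3.05. Both FOXD2 lists lay well above both control lists. Of its 17 H3K4me1 regions, 6 were held by the FOXD2 lists alone and none by the control lists alone. Without FOXD2 replicate 1, when 1 FOXD2 list was enough, 10 were of the first kind. All 6 lay inside the gene, 5.82 to 39.0 kb from the nearest start, and none of them overlapped the 1 tag site there. That site spans 0.724 kb, against 17.5 kb for the 13 sites at MDM2, so the overlaps at the 2 genes cannot be compared. The 6 regions had deposited folds between 2.72 and 10.7. Equal list length and the stricter peak threshold each left 4. Over the 10 windows, 12 of 99 H3K4me1 regions were held by the FOXD2 lists alone and 4 by the control lists alone. The share over all regions of the genome was not counted. Both FOXD2 lists are the longer ones, so nothing particular to SESN1 or MDM2 is read from these numbers. H3K27ac covered 3.07 and 2.57 kb in control and 3.91 and 3.42 kb in FOXD2 cells, groups that did not overlap but differed by 0.844 kb on average.

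**Figure D4:**
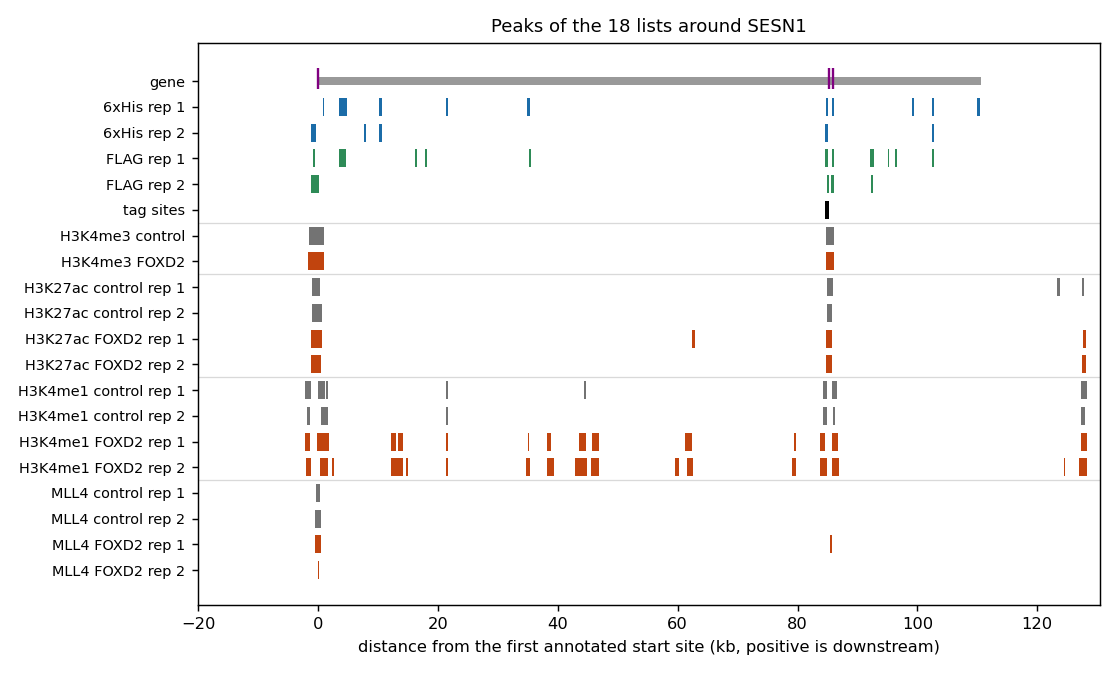
Peaks of each of the 18 lists (rows, as bars) around SESN1, against the distance in kb from its first annotated start, with purple ticks at the 3 starts. H3K4me3 and H3K27ac sit at both promoters in both groups, while H3K4me1 bars along the gene between them are far more numerous in the FOXD2 lists.

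The 1 tag site at SESN1 (chr6:109009602-109010325, 724 bp) lay at the internal promoter, 0.411 kb upstream of the nearest start by its centre, and H3K4me3, H3K4me1 and H3K27ac were there in all lists. It also overlaps ARMC2 on the RefSeq map. The start with the p53 pair, a little downstream, had a tag peak in 3 of the 4 lists. Tag peaks over SESN1 covered 4.99 and 2.45 kb in the 6xHis and 5.29 and 2.64 kb in the FLAG lists. That is a modest length for a window of 151 kb.

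The other receptor, FAS, had no tag site. Tag peaks covered 3.02, 1.85, 3.95 and 0.892 kb of its window in 6xHis replicates 1 and 2 and FLAG replicates 1 and 2. A single region was held by 3 of the 4 lists. No tag list placed a peak over any of its 3 starts, the one with a p53 pair included. H3K4me1 at FAS covered 6.55 and 4.91 kb in control and 7.05 and 9.11 kb in FOXD2 cells. H3K27ac covered 0.982 and 1.71 kb in control and 1.81 and 2.48 kb in FOXD2 cells. The groups overlapped for neither mark, but in number of H3K4me1 peaks the mean difference was -1. The H3K4me1 difference of 2.35 kb was 1.53 kb without control replicate 2 and 1.33 kb without FOXD2 replicate 2. That of H3K27ac, 0.801 kb, was 0.439 kb without control replicate 1 and 0.469 kb without FOXD2 replicate 2. With the stricter peak threshold, and also at equal list length, it was 0.588 kb and the H3K27ac groups no longer stood apart. The window also takes in ACTA2, and 2 H3K4me1 regions were held by the control lists alone.

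BBC3, the BH3-only protein PUMA, had 2 tag sites. The one at its start (chr19:47231498-47233270) carried H3K4me3, H3K4me1 and H3K27ac in every list, and MLL4 in 3 of 4. Tag peaks lay over the start itself in 2 of the 4 tag lists. The other site (chr19:47241319-47243048) lay 8.46 kb before the gene and also had H3K4me3 in both lists. H3K4me1 at BBC3 covered 24.9 and 15.3 kb in control and 16.2 and 16.4 kb in FOXD2 cells, and H3K27ac 22.2 and 21.8 against 21.2 and 31.5 kb. Neither mark separated the groups.

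BAX, the pore-forming effector of mitochondrial death, was almost free of tag peaks. It had 1 peak of 368 bp in FLAG replicate 2, at a deposited fold of 3.67, and none in the other 3 lists. H3K27ac at BAX covered 10.6 and 10.8 kb in control and 14.0 and 20.8 kb in FOXD2 cells (10.7 ± 0.12 against 17.4 ± 4.8 kb, SD, n = 2). The mean difference of 6.71 kb was 10.1 kb without FOXD2 replicate 1 and 3.28 kb without FOXD2 replicate 2, and it lay outside the gene. Within the BAX span, where the mean difference was -0.002 kb, H3K27ac covered 2.07 and 3.02 kb in control and 2.21 and 2.87 kb in FOXD2 cells, and the window holds FTL, DHDH and GYS1 as well. H3K4me1 at BAX covered 14.9 and 9.84 kb in control and 13.6 and 12.5 kb in FOXD2 cells.

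GDF15, a secreted stress cytokine, lies in a densely marked stretch. H3K4me1 covered 35.0 and 29.7 kb of its 43.0 kb window in control and 33.9 and 32.9 kb in FOXD2 cells, the highest H3K4me1 share of the 10. H3K27ac covered 26.3 and 26.4 kb in control and 32.5 and 36.9 kb in FOXD2 cells (26.4 ± 0.092 against 34.7 ± 3.1 kb, SD, n = 2). Of the mean difference of 8.30 kb, 0.732 kb lay within GDF15, and the window also takes in PGPEP1, LRRC25 and SSBP4. In number of H3K27ac peaks the order was the opposite, with means of 12.5 in control and 8 in FOXD2 cells. MLL4 covered 2.24 and 1.71 kb in control and 1.24 and 0.319 kb in FOXD2 cells, but its mean difference was 0.16 kb at equal list length and 0.246 kb within the gene span. Over the window it was -1.19 kb, and -0.732 kb without FOXD2 replicate 2. H3K4me3 covered 5.72 kb in the control list and 3.58 kb in the FOXD2 list, of which 2.89 and 2.79 kb lay inside the gene. Tag peaks were in 6xHis replicate 1 (1.20 kb) and FLAG replicate 2 (4.25 kb) and absent from the other lists, and none lay over the start with the forkhead word.

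TP53I3, a quinone oxidoreductase linked to oxidative stress, had the smallest H3K4me1 difference in kb. The mark covered 5.89 and 4.19 kb in control and 5.47 and 4.27 kb in FOXD2 cells. H3K27ac covered 5.33 and 6.29 kb in control and 4.85 and 7.70 kb in FOXD2 cells. Tag peaks covered 1.81, 0.713, 0.860 and 2.43 kb and never met in all 4 lists, and none lay within the gene.

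**Figure D5:**
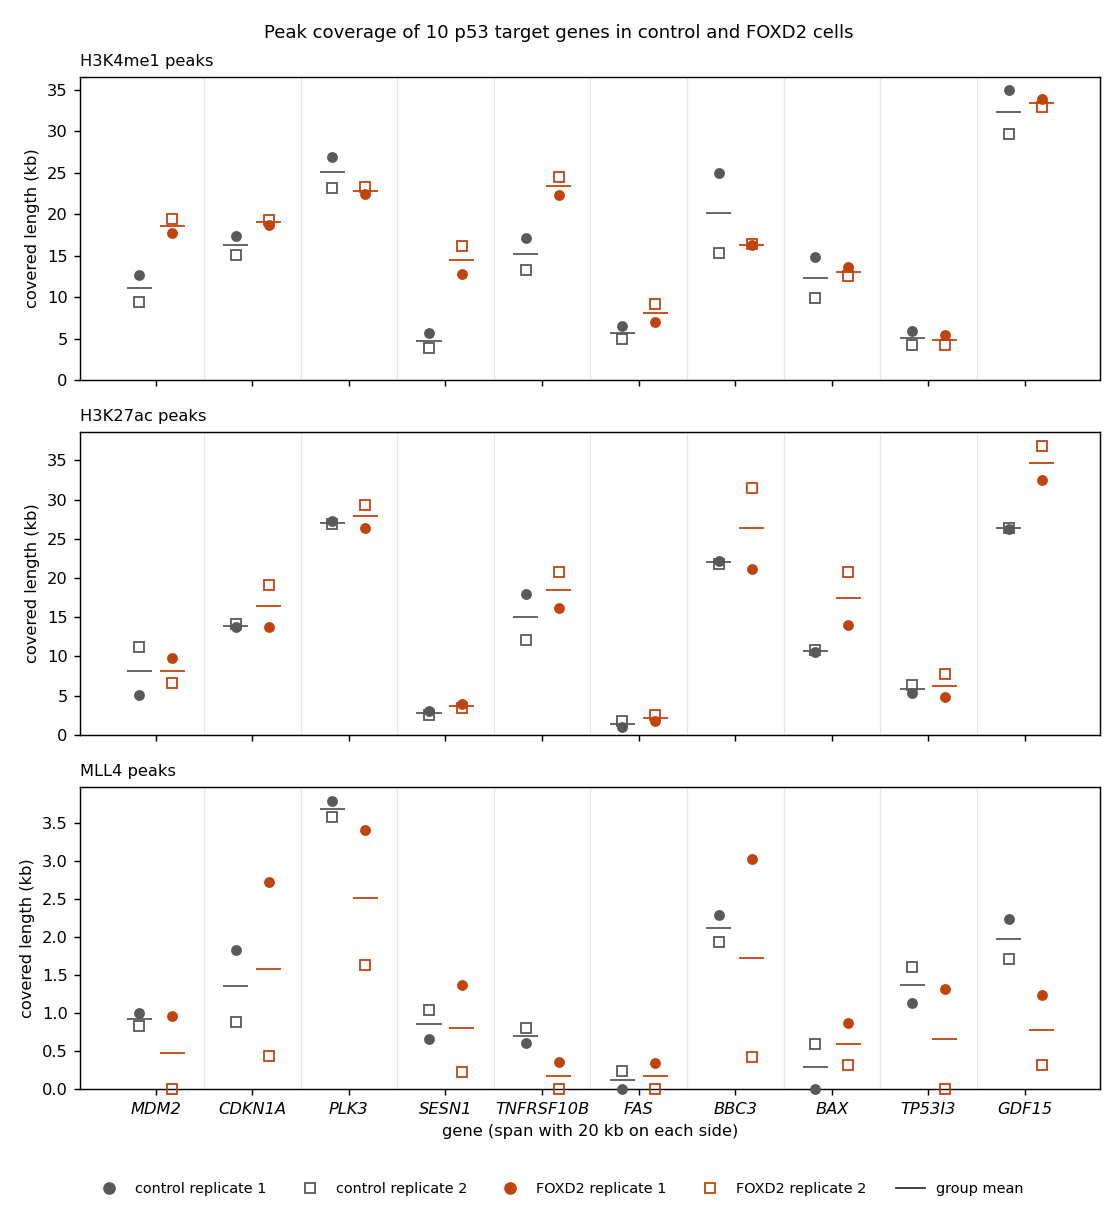
Length covered by H3K4me1, H3K27ac and MLL4 peaks (kb, y axis of each panel) in the window of each gene, with control in grey, FOXD2 in red, filled circles for replicate 1, open squares for replicate 2 and lines for means. For H3K4me1 the red points stand clear above the grey ones at MDM2, TNFRSF10B and SESN1. In the MLL4 panel FOXD2 replicate 2 is at or near 0 for most genes.

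Counts over the 10 genes are given beside those over all protein-coding genes. H3K4me1 covered more in both FOXD2 lists than in both control lists at 5 of the 10 (MDM2, CDKN1A, TNFRSF10B, SESN1 and FAS), against 38.4% of all protein-coding genes, and less at 0, against 10.1%. H3K27ac covered more at 4 (BAX, GDF15, SESN1 and FAS), against 25%, and less at 0, against 3.52%. MLL4 covered less at 3 (TNFRSF10B, PLK3 and GDF15), against 12.3%, and more at 0, against 1.58%. The median ratio of FOXD2 to control means was 1.11 for H3K4me1, 1.22 for H3K27ac and 0.749 for MLL4 over the 10 genes, and 1.13, 1.25 and 0.705 over all genes with peaks in control. Nothing particular to the 10 genes is read from these shares. The counts changed when single libraries were left out. H3K4me1 covered more at 9 genes without control replicate 1 and less at 5 without control replicate 2. H3K27ac covered more at 9 without FOXD2 replicate 1 and less at 3 without FOXD2 replicate 2. MLL4 covered more at 5 without FOXD2 replicate 2 and less at 8 without FOXD2 replicate 1. With a list left out, fewer lists had to agree, so these counts could only stay or rise. In number of peaks, H3K4me1 was higher at 3 and lower at 1, and H3K27ac higher at 1 and lower at 2. Shares over all protein-coding genes were not computed for left-out lists or for numbers of peaks. With 2 libraries against 2, the exact permutation test cannot go below p = 0.33, so no per-gene p is given. The labels do not state whether replicates came from separate cultures, so the SDs measure the spread between libraries, which may be technical. H3K4me3 over the 10 windows summed to 57.0 kb in control and 52.9 kb in FOXD2 cells, with 1 library per group. PLK3 had 10.8 kb in control and 8.28 kb in FOXD2 cells, and the decreases at PLK3 and GDF15 together were larger than that of the sum.

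The wider p53 pathway was described from lists chosen with these results known. Of 12 genes for p53 and its regulators, 9 had a tag site, against 20.6% of all protein-coding genes. PPM1D, the phosphatase that switches p53 signalling off, had 12. EP300 and CREBBP, coactivators of p53, had 4 each. H3K4me1 covered more in both FOXD2 lists at 7 of the 12 (38.4% of all genes) and less at 0 (10.1%). H3K27ac covered more at 5 (25% of all genes) and less at 1 (3.52%), which was TP53BP1, with 11.6 and 11.7 kb in control and 5.82 and 11.2 kb in FOXD2 cells. At PPM1D H3K4me1 covered 13.8 and 12.4 kb in control and 20.1 and 24.0 kb in FOXD2 cells, and H3K27ac 5.80 and 2.69 against 11.1 and 14.1 kb. At CREBBP H3K4me1 covered 18.6 and 10.7 kb in control and 27.2 and 33.0 kb in FOXD2 cells. H3K27ac at CREBBP covered 8.77 and 5.25 kb against 9.22 and 18.1 kb.

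Of 16 other arrest and repair targets, 9 had a tag site (20.6% of all genes), none more than 2, as at RRM2B, a ribonucleotide reductase subunit. GADD45A, a DNA damage response protein, had 1. H3K4me1 covered more in both FOXD2 lists at 8 (38.4% of all genes) and less at 0 (10.1%). It was widest apart at FBXW7, a ubiquitin ligase subunit, with 10.3 and 7.92 kb in control and 17.6 and 25.7 kb in FOXD2 cells, then at GADD45A with 9.52 and 8.76 against 12.8 and 15.0 kb. H3K27ac was higher at 4 (25% of all genes) and lower at 1 (3.52%), TIGAR, with 4.64 and 5.26 kb in control and 3.84 and 4.38 kb in FOXD2 cells. PHLDA3, an inhibitor of AKT, had 14.2 and 12.4 kb in control and 21.9 and 28.2 kb in FOXD2 cells, and SFN, the 14-3-3 sigma protein, 21.4 and 18.8 against 26.3 and 25.2 kb.

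Of 12 other apoptosis targets, 4 had a tag site (20.6% of all genes), with 2 each at TP53INP1, PERP and AEN. H3K4me1 covered more at 5 (38.4% of all genes) and less at 1 (10.1%), PERP, with 13.4 and 11.3 kb in control and 9.17 and 9.57 kb in FOXD2 cells. RPS27L had 2.47 and 1.92 kb in control and 7.69 and 8.11 kb in FOXD2 cells. AEN, an apoptosis nuclease, had 19.0 and 15.5 against 21.9 and 23.5 kb. H3K27ac was higher at 2 of these 12 (25% of all genes) and lower at 3 (3.52%). The 2 were AEN, with 13.1 and 11.3 kb in control and 18.3 and 26.2 kb in FOXD2 cells, and TNFRSF10A, the receptor beside TNFRSF10B, with 9.69 and 7.90 against 14.1 and 17.5 kb. The 3 were APAF1, the apoptosome scaffold, with 2.44 and 3.02 kb in control against 0 and 2.09 kb, EI24 with 6.31 and 6.17 against 5.81 and 5.32 kb, and SPATA18 with 1.43 and 1.84 against 0.814 and 1.31 kb. TP53BP1, TIGAR, APAF1, EI24 and SPATA18 were named after their values were seen. MLL4 covered less at 3, 1 and 1 genes of the 3 lists (12.3% of all genes) and more at 0, 1 and 0 (1.58%). The median number of tag sites was 2 for the regulators, 1 for the arrest and repair targets and 0 for the apoptosis targets, against 0 for all genes.

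The lists themselves set limits on these values. They held 95756 to 129887 peaks for H3K4me1, 85122 to 141008 for H3K27ac, 22975 and 24528 for H3K4me3, 4676 to 22493 for MLL4 and 26942 to 48194 for the tags. Both FOXD2 lists of H3K4me1 were longer than both control lists and covered 164 and 177 Mb against 146 and 121 Mb, a difference whose part in the values above was not tested beyond the equal-length lists. H3K4me3 lay in both lists on 8 of 10 epithelial markers, among them EPCAM, CDH1 and CDX2, while KRT20 and VIL1 had none. It also lay on 1 of 6 blood markers, 4 of 6 fibroblast and endothelial markers and 2 of 4 neural markers, over 1.17, 7.25 and 4.82 kb in the control list and 0.559, 5.84 and 2.79 kb in the FOXD2 list, against 32.2 and 29.0 kb for the epithelial ones. Read depth per library is unknown, so a missing peak gives no limit of detection.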

How the data were processed

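The series holds ChIP-seq of 25 HCT116 libraries. Lists of peaks from 18 of them were read, and the 7 inputs were left out. In the submitters' processing notes the build is hg38 and the tools are MACS2 2.2.7.1, Bowtie2 2.3.4.1, cutadapt 3.4, bedtools and Picard. Per the labels' protocols, histone marks came from native MNase-digested chromatin, and MLL4 and the tags from crosslinked, sonicated chromatin. The authors deposited 1 narrowPeak list per library, in which each peak has a fold enrichment (a ratio) and −log10 values of a p-value and of a q-value. The fold serves here to describe peaks within a list. The sources used here do not give the background library of any list.

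Peaks outside chromosomes 1 to 22 and X were dropped. For each protein-coding gene of RefSeq (GRCh38.p14), the length covered by peaks and their number were taken in the gene span plus 20 kb on each side. A gene was called higher or lower where both FOXD2 lists lay beyond both control lists. Regions were peaks merged with a gap of 0 bp, held by a list with at least 1 bp of a peak. The coverage steps were tested on simulated data. The 10 genes and the p53 lists were chosen with earlier results of these data known. Named genes were the 10, then in each p53 list up to 2 with the most tag sites and up to 2 with the largest H3K4me1 or H3K27ac difference among those called, and the 3 genes most like MDM2. Alternatives covered the peak threshold, list length, window, overlap, merging, peak number, replicate block and each library left out. Calculations ran in Python 3.11.15 with pandas 2.3.3 and numpy 2.4.6.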

Additional observations from a re-analysis of the deposited data

How the results depend on the processing

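The 33 results were recomputed under the alternatives that apply to each. Counts of genes are of the 10. With a −log10 q of 5 or more, 1 gene had less H3K4me1 in FOXD2 cells, and 14 tag sites at 3 genes were left. At equal list length, 1 gene had less H3K4me1, 1 had more MLL4, and the GDF15 MLL4 difference was 0.16 kb. In the gene span alone, 0 genes had less MLL4, and differences were -0.227 kb for CDKN1A H3K4me1, -0.002 kb for BAX H3K27ac, 0.597 kb for PLK3 MLL4 and 0.246 kb for GDF15 MLL4. In number of peaks, H3K4me1 was higher at 3 genes and lower at 1, and H3K27ac higher at 1 and lower at 2, with differences of -0.5 for CDKN1A H3K4me1, -1 for FAS H3K4me1 and -4.5 for GDF15 H3K27ac. Tag sites in at least 3 lists numbered 35, and those covered to 50% by each list, an alternative chosen after seeing the data, numbered 9 at 3 genes. Requiring an overlap of 50% of the shorter interval changes nothing by construction. Leaving out each library in turn gave 5 to 9 genes higher and 0 to 5 lower in H3K4me1, and 4 to 9 higher and 0 to 3 lower in H3K27ac. For MLL4 it gave 0 to 5 higher and 3 to 8 lower, and for the tags 23 to 29 sites at 6 to 7 genes. Fewer lists then had to agree, so calls of genes could only stay or be added, and tag sites could be added by the looser rule alone. With the replicate block (both same-numbered pairs differing in 1 direction), 5 genes were higher and 0 lower in H3K4me1, 5 higher and 0 lower in H3K27ac, and 0 higher and 4 lower in MLL4. Deviations of same-numbered lists correlated at 0.048, -0.444 and 0.177 across 19974 genes, and the labels do not say that the numbers pair them. Crossing the H3K27ac numbers, added after seeing the data, also gave 5 higher and 0 lower. Of 242 single-gene values under alternatives, 194 kept their result, 40 moved and 8 reversed, and the cause was not tested. A value moved where its groups no longer stood apart, or where its number of sites or regions changed beyond a set ratio. The 194 include the values of the 50% overlap alternative, which could not change. Sizes in kb depended on the window: the GDF15 H3K27ac difference went from 8.30 kb to 0.732 kb in the gene span, and that of BAX from 6.71 to 18.5 kb with 50 kb on each side. Read depth is unknown, so peaks missing from a list cannot be told apart from peaks under its threshold.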
